A study of Mus musculus with 6 samples.

Results

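The eukaryotic translation initiation factors, whose gene symbols start with Eif, were examined in newborn mouse lenses that lack the heat shock transcription factor Hsf4. Members were the probe sets (groups of short oligonucleotides that are summarized together) whose array annotation gives exactly 1 gene symbol made of Eif and a digit. The Eif2ak kinases, Eif2s3x and Eif2s3y were left out. This gave 36 of 12393 genes, with 90 of the 22626 tested probe sets, and 3 of the 90 belong to Eif5b. A further 5 probe sets that share an Eif symbol with another gene and 13 of the Eif2ak and Eif2s3 genes were not counted. The data are 6 Affymetrix mouse arrays, 3 from Hsf4-null and 3 from wild-type lenses of newborn ICR mice, for which 50 ng of RNA per sample was amplified. The sources used here do not say whether lenses of several animals were pooled. Whole lenses were used, so that lower RNA per cell and fewer cells of one kind cannot be told apart.

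Initiation is the step at which a ribosome is brought to the start codon of an mRNA. The cap-binding complex eIF4F recruits the mRNA, eIF2 brings the initiator tRNA, and eIF3 holds the small ribosomal subunit. The scanning factors eIF1, eIF1A and eIF5 help to select the start codon, and the GTPase eIF5B then joins the large subunit to the small one. Eif5b was singled out because its decrease in these arrays was already known when the family was chosen. Lens fibers make crystallins in very large amounts before they lose their nuclei and other organelles. Hsf4 is the heat shock factor of the lens and binds heat shock elements, which are built from alternating GAA and TTC units.

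The values are RMA intensities (robust multichip average, a background-corrected and normalized summary of each probe set), given here as log2. Median log2 intensity was 5.22 to 5.38 over the Hsf4-null arrays and 5.23 to 5.34 over the wild-type arrays, and arrays correlated at 0.991 to 0.994 within a group and 0.982 to 0.990 between groups. The Hsf4 probe set averaged 4.04 ± 0.24 in Hsf4-null lenses and 9.35 ± 0.24 in wild-type lenses (SD, n = 3 each), so that the targeted gene was low in the arrays labelled null. Of 9 measured lens markers, 8 did not pass the test and Bfsp1 (filensin) was lower in Hsf4-null lenses. Markers of retina, pigment cells, cornea, blood, vessels, macrophages and mesenchyme were measured for 33 genes. Of these 33, 2 were higher in Hsf4-null lenses (Col1a1 and Twist1), 0 were lower and 31 did not pass limma. Over all 12393 genes, each by its brightest probe set, 0.775% passed with Hsf4-null higher and 2.11% with Hsf4-null lower. Among all 33, those 2 included, 10 had an unadjusted limma p under 0.05, against 15.4% of all probe sets. The mean log2 level of 4 pigment cell markers ran from 7.07 to 8.24 in Hsf4-null and from 5.83 to 7.44 in wild-type arrays, that of 6 macrophage markers from 5.73 to 6.50 in Hsf4-null and from 4.97 to 5.98 in wild-type arrays, and that of 5 mesenchyme markers from 7.04 to 7.30 in Hsf4-null and from 6.16 to 6.84 in wild-type arrays. Of the 33 markers 18, Twist1 among them, were dim, with both group means below the lowest array median. The part of these cells in the results below was not tested.

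Eif5b fell in Hsf4-null lenses on each of its 3 probe sets, by 9.47-fold to 16.3-fold. No other member changed by as much as 2-fold. Each p-value below is from limma, a linear model that pools information on the spread, and is adjusted by Benjamini-Hochberg over all 22626 probe sets. A probe set was called at an adjusted p under 0.05. An exact permutation test of a single probe set could not go below 0.1 in this design. Of the 90 members, 4 were called lower and 0 higher, against 1.94% called lower, 0.72% called higher and 2.66% called in either direction over all tested probe sets. At an unadjusted p under 0.05 there were 12 members, against 15.4% of all probe sets. The methods' t-test passed 14 members (background 12.9%), and 3 after Benjamini-Hochberg adjustment (background 0.376%), those of Eif5b. By the brightest probe set of each gene, 1 of the 36 genes was called lower and 0 higher, against 2.11% and 0.775% of 12393 genes. The 4 called were the 3 probe sets of Eif5b and 1 of the 4 probe sets of Eif5. Without the Eif5b probe sets 1 of 87 (1.15%) was called.

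The window of 250 bases before to 50 bases after the annotated start of Eif5b is shown because it holds letters of the element that Hsf4 binds (RefSeq, GRCm38.p6, chr1:37997760-37998059, plus strand). Capitals mark, in this order, a GAANNTTC match and a TTCNNGAA match, the pair of ways in which a GAA unit and a TTC unit can face each other 2 bases apart.
Eif5b: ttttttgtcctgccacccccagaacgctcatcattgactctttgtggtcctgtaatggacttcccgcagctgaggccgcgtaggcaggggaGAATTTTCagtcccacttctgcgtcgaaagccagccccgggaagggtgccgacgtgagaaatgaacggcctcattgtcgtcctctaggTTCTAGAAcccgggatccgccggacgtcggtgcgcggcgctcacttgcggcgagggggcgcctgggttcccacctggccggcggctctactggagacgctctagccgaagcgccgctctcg
The GAANNTTC match begins 159 bases and the TTCNNGAA match 71 bases before the start. Both motifs read the same on the opposite strand, so that 1 search covers both strands. Windows of the same length held TTCNNGAA in 9.6% of 27025 genes, GAANNTTC in 9.04% and both in 1.51%. Of the 36 member genes, 28 had a window, and 1 of them, Eif5b, held both. A match of letters does not show that a factor binds there.

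Among the other 27 members with a window, TTCNNGAA was found in Eif4g3 and GAANNTTC in Eif3a and Eif3f. They are shown beside the Eif5b window as members that hold the same letters, with the matches in capitals.
Eif4g3, chr4:137993305-137993334, plus strand: ctcctgcggcgTTCCCGAAcagcggccgaa
Eif3a, chr19:60790829-60790858, minus strand: aaaacggtcccGAAGGTTCcctcccgcaac
Eif3f, chr7:108934301-108934330, plus strand: acaactagccgGAAATTTCatgtccaatag
None of these 3 genes was called. By its brightest probe set, the log2 fold change of Hsf4-null minus wild-type was -0.32 for Eif4g3 (limma adjusted p = 0.273), -0.04 for Eif3a (0.888) and 0.16 for Eif3f (0.477). The longer element GAANNTTCNNGAA (both strands), with 3 units in a row, was in 0.662% of genes and in 0 of the 28 members. Genes without a window were Eif1a, Eif3e, Eif3h, Eif3i, Eif4e3, Eif4ebp1, Eif4g2 and Eif6.

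On its brightest probe set, 1434604_at, Eif5b had log2 intensities of 9.27, 9.46 and 9.35 in Hsf4-null lenses, against 12.51, 12.63 and 12.68 in wild-type lenses. The second probe set, 1434605_at, read 7.04, 6.90 and 7.13 in Hsf4-null lenses and 10.93, 11.09 and 11.16 in wild-type lenses. The third, 1435592_at, read 6.47, 6.41 and 6.88 in Hsf4-null lenses and 9.81, 10.07 and 10.00 in wild-type lenses. On every probe set the Hsf4-null arrays lay close together and far below the wild-type arrays, with no overlap. The log2 fold changes were -3.24 (SE 0.10, limma adjusted p = 9.54e-06), -4.03 (SE 0.11, 9.54e-06) and -3.37 (SE 0.15, 5.12e-05). In linear terms the signal in Hsf4-null lenses was 10.6%, 6.12% and 9.64% of the wild-type level.

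**Figure D1:**
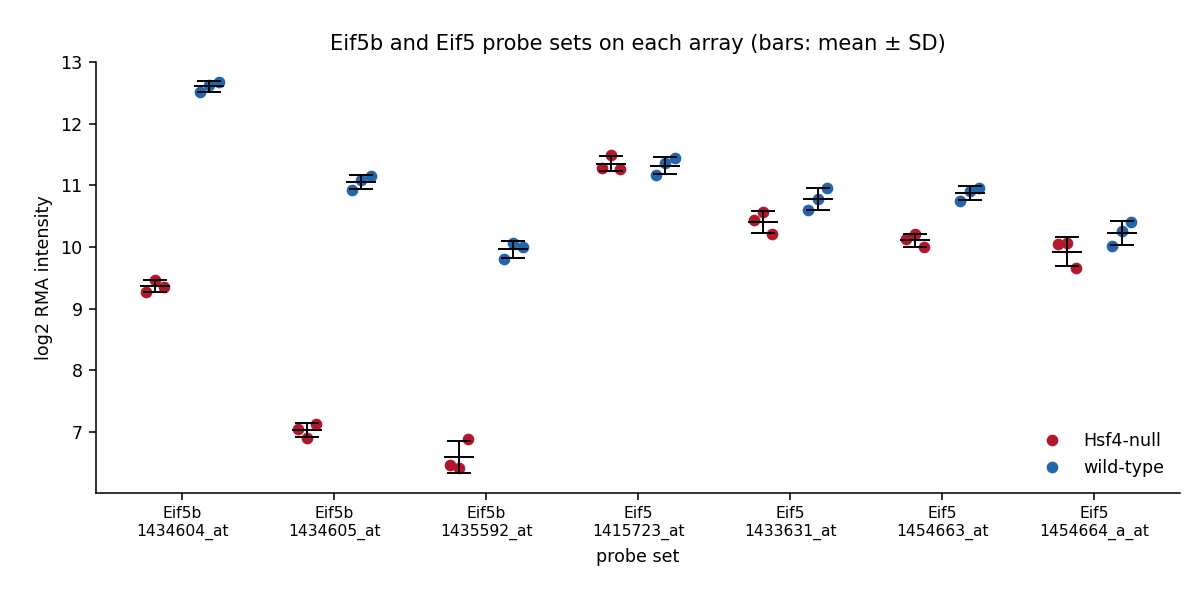
Log2 RMA intensity of the 3 Eif5b and 4 Eif5 probe sets on each Hsf4-null (red) and wild-type (blue) array, with bars at the mean ± SD (n = 3 each). Hsf4-null arrays lie far below wild-type arrays on every Eif5b probe set, with log2 fold changes of -4.03 to -3.24, whereas of the Eif5 probe sets only 1454663_at passed the test, and heights cannot be compared between probe sets.

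In Hsf4-null lenses all 3 Eif5b group means, 9.36 ± 0.10, 7.03 ± 0.12 and 6.59 ± 0.26 (SD, n = 3), lay above the lowest array median of 5.22. That median is not a detection limit. How much of the remaining signal is background of each probe set was not tested, nor was its part in the differences below. The probe sets differed in the size of their decrease. The 95% confidence interval of the decrease was 8.05-fold to 11.2-fold for 1434604_at and 13.7-fold to 19.5-fold for 1434605_at, so that these 2 intervals do not overlap, while that of 1435592_at, 8.17-fold to 13.2-fold, overlaps the first. The difference between 1434604_at and 1434605_at was 2.23, 2.56 and 2.22 log2 units in Hsf4-null lenses, against 1.59, 1.55 and 1.52 in wild-type lenses. These differences did not overlap between groups. The sources used here do not give the place of each probe set on the Eif5b transcript. Over all tested probe sets 20 (0.0884%) had a log2 fold change of -3 or lower, and 3 of those 20 were the Eif5b probe sets, at places 9, 15 and 17 from the lowest.

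Eif5, the GTPase-activating protein of eIF2, gave a mixed picture. Its probe set 1454663_at was lower on each Hsf4-null array, at 10.13, 10.20 and 10.00, against 10.74, 10.92 and 10.97 on wild-type arrays, a decrease of 1.70-fold (log2 fold change -0.76, SE 0.11, limma adjusted p = 0.0107). The brightest Eif5 probe set, 1415723_at, read 11.29, 11.49 and 11.27 in Hsf4-null lenses and 11.16, 11.36 and 11.44 in wild-type lenses. Those groups overlap, and the log2 fold change was 0.03 with a 95% confidence interval from -0.24 to 0.30. The remaining Eif5 probe sets lay between, at -0.38 for 1433631_at (adjusted p = 0.244) and -0.30 for 1454664_a_at (adjusted p = 0.403). Within the family, Eif5 and Eif5b were the genes whose probe sets differed most, by 0.79 log2 units between the highest and the lowest in each. The call of 1454663_at was lost without Hsf4-null replicate 3 (adjusted p = 0.0516) and without wild-type replicate 2 (adjusted p = 0.0557), with log2 fold changes of -0.71 and -0.74.

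Of the 87 members other than Eif5b, 45 had a log2 fold change below 0 and 42 above it. Their median was -0.01, beside 0.00 over all 22626 probe sets, and their quartiles were at -0.12 and 0.09, beside -0.13 and 0.13 over all. For 76 of the 87 (87.4%) the 95% confidence interval lay within a 1.5-fold change in either direction, a bound that 73.3% of all probe sets met. A p that misses the threshold does not by itself show that the groups were alike. Groups did not overlap in 17 of the 90 members with Hsf4-null lower and in 11 with Hsf4-null higher, against 11.7% and 9.37% of all probe sets. Among the 87 other than Eif5b these counts were 14 and 11. Members were less often dim than the array as a whole: 12 of 90 (13.3%) had both group means below the lowest array median, against 48.0% of all probe sets. Their median within-group SD was 0.12 log2 units, against 0.16 over all. No member was filtered out, and the count with a confidence interval inside 1.5-fold includes dim probe sets, on which a change can be hidden.

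**Figure D2:**
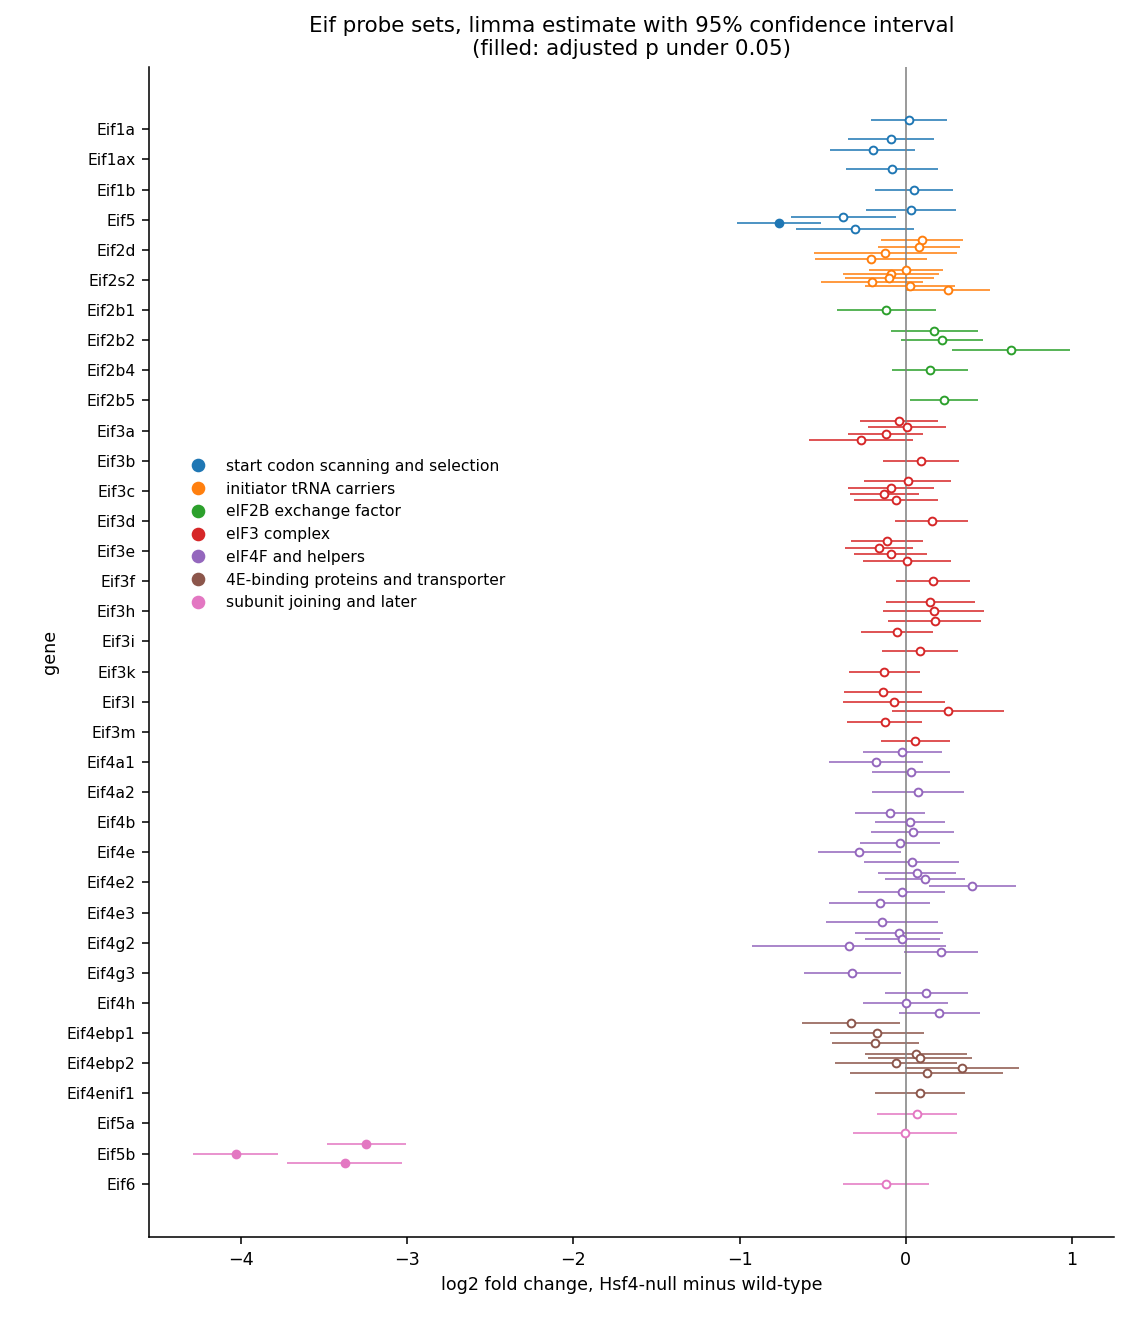
Log2 fold change, Hsf4-null minus wild-type, of the 90 Eif probe sets by gene, coloured by role, with limma 95% confidence intervals (3 arrays per group), filled where the adjusted p is under 0.05. The 3 Eif5b points lie between -4.03 and -3.24, the other filled point is 1 Eif5 probe set at -0.76, and the remaining 86 lie between -0.38 and 0.63.

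The scanning factors other than Eif5 had small differences. Eif1ax, which encodes eIF1A, read 10.70, 10.69 and 10.42 in Hsf4-null lenses and 10.74, 10.83 and 10.84 in wild-type lenses on its brightest probe set, with groups that did not overlap and a log2 difference of -0.20 (limma adjusted p = 0.445). Eif1a had 0.02 (adjusted p = 0.954) and Eif1b 0.05 (adjusted p = 0.868). Eif1ax lies on the X chromosome, and the arrays differ in sex-linked signal. The Y-linked gene Eif2s3y read 4.35, 10.28 and 3.20 in Hsf4-null lenses and 3.40, 10.48 and 10.80 in wild-type lenses, and the X-inactivation RNA Xist read 9.51, 5.79 and 5.84 in Hsf4-null lenses and 10.50, 5.24 and 5.26 in wild-type lenses. Hsf4-null replicate 3, the lowest array for Eif1ax, was low in both, and the part of this difference in the result was not tested. The Eif5b values of arrays with high and low Eif2s3y lay close together within each group. In this group 1 of 9 probe sets was called, that of Eif5.

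Neither carrier of initiator tRNA was called. The 6 probe sets of Eif2s2, the beta subunit of eIF2, ran from -0.20 to 0.25 in log2 fold change, and the 4 of Eif2d, which can deliver tRNA without eIF2, from -0.21 to 0.10. The lowest adjusted p of the group, 0.318, belonged to a dim Eif2s2 probe set (1441023_at, log2 fold change 0.25). All 10 intervals lay within a 1.5-fold change.

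The eIF2B complex reloads eIF2 with GTP and is blocked by eIF2 that stress kinases have phosphorylated. Its 6 probe sets had a median log2 fold change of 0.20, the highest of the groups by role, with 5 above 0 and 0 called. Of these probe sets 3 belong to Eif2b2, so that 1 gene weighs heavily in the median and the count. The largest was on Eif2b2 (beta subunit) probe set 1437428_x_at, which read 5.98, 6.37 and 6.30 in Hsf4-null lenses and 5.76, 5.66 and 5.34 in wild-type lenses (log2 fold change 0.63, SE 0.15, limma adjusted p = 0.0891). These groups do not overlap, but the brightest Eif2b2 probe set, 1434538_x_at, had 0.17 (adjusted p = 0.519). The third, 1451136_a_at, had 0.22 with no overlap between groups (limma adjusted p = 0.388). Eif2b5, the catalytic epsilon subunit, read 8.27, 8.25 and 8.30 in Hsf4-null lenses and 8.08, 8.02 and 8.05 in wild-type lenses. Its replicates lay close together and the groups did not overlap, but the difference of 0.23 log2 units (SE 0.09, adjusted p = 0.270) did not pass limma. Eif2b4 had 0.15 (adjusted p = 0.537) and Eif2b1 had -0.12 (adjusted p = 0.722).

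The scaffold eIF3 was measured by 26 probe sets for 11 subunits, and 0 were called by limma, with 0 at an unadjusted p under 0.05. The methods' t-test passed 4 of the 26 at its own threshold, Eif3c 1415858_at, Eif3e 1460432_a_at and Eif3k 1452674_a_at with Hsf4-null lower and Eif3d 1416100_at with Hsf4-null higher, and 0 after Benjamini-Hochberg adjustment. Over all tested probe sets 12.9% passed that test unadjusted and 0.376% after adjustment, and 15.4% had an unadjusted limma p under 0.05. Log2 fold changes ran from -0.27 to 0.25, the median was -0.05, and 25 of 26 intervals lay within a 1.5-fold change. The lowest was an Eif3a probe set (1416660_at, adjusted p = 0.393), and the other 3 Eif3a probe sets ran from -0.12 to 0.00. Among subunits by their brightest probe set, the highest were Eif3f at 0.16 (adjusted p = 0.477), Eif3d at 0.15 (0.485) and Eif3h at 0.15 (0.595), and the lowest were Eif3l at -0.14 (0.578), Eif3k at -0.13 (0.554) and Eif3m at -0.13 (0.591). Eif3d read 10.48, 10.36 and 10.36 in Hsf4-null lenses and 10.30, 10.21 and 10.24 in wild-type lenses. Its groups do not overlap, and the 95% confidence interval of the log2 fold change was -0.06 to 0.37.

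The cap-binding complex eIF4F and its helpers had 24 probe sets for 9 genes, 0 of them called, with log2 fold changes from -0.34 to 0.40 and a median of -0.01. Eif4e, which binds the cap, had -0.04 on its brightest probe set (adjusted p = 0.905), while its second probe set, 1450908_at, had -0.28 with no overlap between groups (0.268). The RNA helicase genes Eif4a1 and Eif4a2 had -0.02 (0.951) and 0.07 (0.823). The scaffold gene Eif4g3 read 8.65, 8.93 and 8.91 in Hsf4-null lenses and 9.26, 8.98 and 9.23 in wild-type lenses, with a log2 fold change of -0.32 (SE 0.13, limma adjusted p = 0.273). The groups did not overlap, and the closest arrays were nearly level. Eif4g2 (a scaffold that does not bind Eif4e) had its lowest value on 1452758_s_at, which read 9.41, 10.24 and 9.23 in Hsf4-null lenses and 9.85, 10.18 and 9.87 in wild-type lenses. The null replicates differed widely there (SD 0.54), the groups overlap, and the other Eif4g2 probe sets above the array median had -0.04 and -0.02. Eif4e2, a relative of Eif4e, had 0.40 on 1435804_at (adjusted p = 0.139) and 0.06 on its brightest probe set (adjusted p = 0.812). Eif4e3 had -0.16 (0.624) and Eif4h, which stimulates the helicase, 0.12 (0.637).

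The 4E-binding proteins hold back Eif4e when mTOR signalling is low. Eif4ebp1 read 6.72, 6.90 and 7.02 in Hsf4-null lenses and 7.03, 7.35 and 7.25 in wild-type lenses on its brightest probe set, and its log2 fold change of -0.33 (SE 0.13, limma adjusted p = 0.271) did not pass. The 5 probe sets of Eif4ebp2 ran from -0.06 to 0.34, and Eif4enif1, which shuttles Eif4e into the nucleus, had 0.09 (adjusted p = 0.781). In this group 0 of 9 probe sets were called and 6 had an interval within a 1.5-fold change, the least precise group with a median SD of 0.17. Eif5a, first named as an initiation factor and known for its part in elongation, had 0.07 (adjusted p = 0.813), and Eif6, which keeps the subunits apart, had -0.12 (adjusted p = 0.669). Each Eif5a and Eif6 probe set had overlapping groups.

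**Figure D3:**
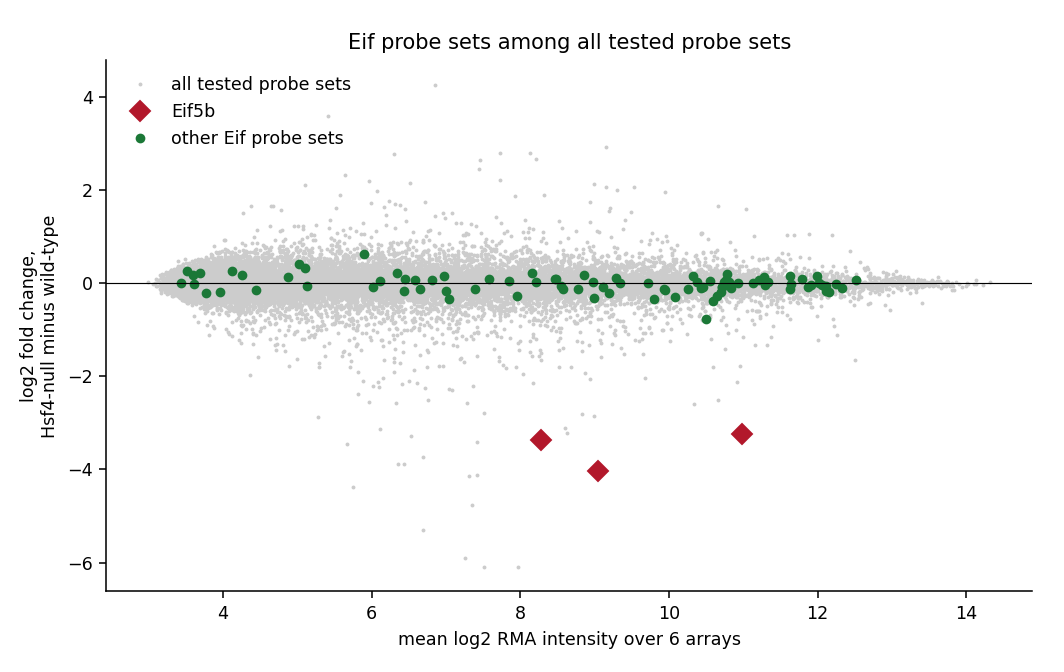
Log2 fold change, Hsf4-null minus wild-type, against the mean log2 intensity over 6 arrays for all 22626 tested probe sets (grey), the 87 Eif probe sets other than Eif5b (green) and the 3 of Eif5b (red diamonds). The Eif5b points lie at -3.24 to -4.03, and the green points between -0.76 and 0.63.

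Across the arrays the family moved little as a whole. The median deviation of the 87 members other than Eif5b from each probe set's own mean was 0.00, 0.03 and -0.04 log2 units on Hsf4-null replicates 1, 2 and 3, and -0.02, 0.03 and 0.03 on the wild-type replicates. Hsf4-null replicate 3 had the lowest value of its group for 37 of the 87 (42.5%) and wild-type replicate 1 for 46 (52.9%), where the same arrays were lowest for 32.4% and 39.7% of all probe sets. These shifts are small beside the change of Eif5b, which was lower on each Hsf4-null array than on each wild-type array.

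**Figure D4:**
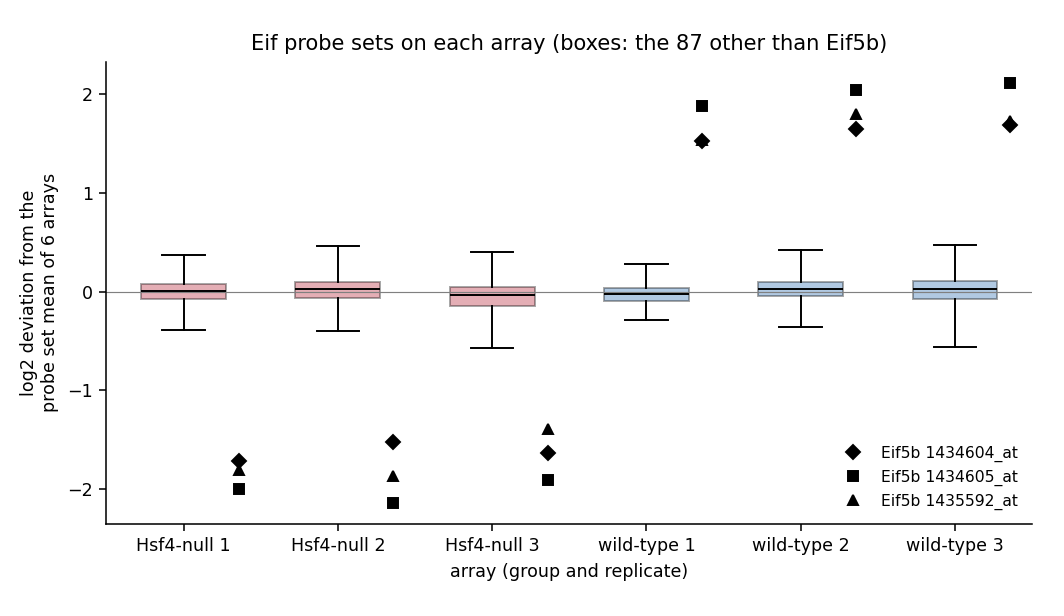
Deviation of Eif probe sets from their mean over 6 arrays, in log2 units, on each Hsf4-null and wild-type array. Boxes give the quartiles and whiskers the full range of the 87 probe sets other than Eif5b, with medians between -0.04 and 0.03, and black symbols the 3 Eif5b probe sets, all below the whiskers on Hsf4-null and above them on wild-type arrays.

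Probe sets of a gene share their samples and are not replicates, but they show whether a change rests on 1 set of oligonucleotides. They can also share a source sequence. In the array annotation Eif5b 1434604_at and 1434605_at have the same source sequence and 1435592_at another, and all 4 Eif5 probe sets have the same. Of the 36 member genes, 12 had 1 probe set and 24 had several, up to 6. Eif5b was the single gene of the family with all its probe sets called, and Eif5 the single gene with some but not all. For the 22 genes with at least 2 probe sets above the lowest array median in a group, the median distance between their highest and lowest log2 fold change was 0.21. The 4 called probe sets all have names that end in _at with no further letter, the class designed to read 1 transcript, to which 52 of the 90 members belong.

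Genes that work beside the Eif factors were taken as 5 lists. Of 56 measured genes by their brightest probe set, 1 was higher, 2 were lower and 53 did not pass, against 2.88% called of 12393 genes represented the same way. Mknk2, a kinase that phosphorylates Eif4e, read 10.66, 10.87 and 10.63 in Hsf4-null lenses and 11.35, 11.56 and 11.61 in wild-type lenses (log2 fold change -0.78, SE 0.12, limma adjusted p = 0.0131). Its dimmer probe set had -1.20 and was more variable (SE 0.29, adjusted p = 0.0928). The call of Mknk2 was lost without Hsf4-null replicate 1 (adjusted p = 0.0525) or 3 (0.0653), and without wild-type replicate 2 (0.0654) or 3 (0.0528). It was the 1 call among 22 initiation helpers, a list that also holds Dnajc3 (an inhibitor of eIF2 kinases), where 1 of 5 probe sets, 1419162_s_at, was called lower (log2 fold change -0.81, adjusted p = 0.0222) and the brightest was not (-0.22, adjusted p = 0.366). Pabpc1, the poly(A)-binding protein that joins Eif4g1, had -0.04 (adjusted p = 0.888).

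Of the 7 kinases, phosphatase subunits and regulators that act on eIF2, 1 was higher. Eif2ak3 (PERK, the kinase that senses unfolded protein in the endoplasmic reticulum) read 6.34, 6.41 and 6.48 in Hsf4-null lenses and 5.75, 5.86 and 5.68 in wild-type lenses (log2 fold change 0.65, SE 0.10, limma adjusted p = 0.0142). Its other 2 probe sets were dim, at -0.41 (adjusted p = 0.0973) and -0.02 (adjusted p = 0.968), so that the call rests on 1 probe set. It was lost without Hsf4-null replicate 2 (0.0524) or 3 (0.0666), without wild-type replicate 3 (0.0559) and with the replicate number as a block (0.0589). Ppp1r15a, the stress-induced phosphatase subunit, had -0.87 at a low level (adjusted p = 0.111). Of 13 elongation and termination genes 1 was lower, Pelo, which rescues stalled ribosomes, at 5.47, 5.43 and 5.16 in Hsf4-null lenses and 6.03, 6.33 and 6.11 in wild-type lenses (log2 fold change -0.80, adjusted p = 0.0178). That call was lost without Hsf4-null replicate 2 (0.0503) or 3 (0.0661) and without wild-type replicate 2 (0.0706) or 3 (0.0565). The elongation factor genes Eef1a1 and Eef2 had 0.02 (adjusted p = 0.942) and 0.16 (adjusted p = 0.504). None of 9 measured genes of the mTOR arm and none of 5 of mitochondrial translation passed limma, each with 1 at an unadjusted p under 0.05.

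The genes that lie next to Eif5b on chromosome 1 were compared, to show whether they changed with it. Taking the 5 nearest measured genes before it and the 5 after it (RefSeq order, GRCm38.p6), 1 of 10 was called, against 2.88% of all genes. This was Rev1, a translesion DNA polymerase, which is the next measured gene after Eif5b, with 1 gene between them that was not measured. Rev1 read 7.07, 6.76 and 6.84 in Hsf4-null lenses and 7.97, 7.79 and 8.09 in wild-type lenses, with no overlap, a decrease of 2.08-fold (log2 fold change -1.06, SE 0.12, limma adjusted p = 0.00436). It has 1 probe set on the array, and it did not pass the methods' t-test once Benjamini-Hochberg adjustment was applied (adjusted p = 0.0936). Eif5b lies on the plus strand and Rev1 on the minus strand, so that the ends of the genes, not their starts, face each other. Txndc9, the neighbour at the start of Eif5b, lies on the minus strand with 0 genes between them, so that their starts are next to each other. Txndc9 read 10.01, 9.91 and 9.94 in Hsf4-null lenses and 10.06, 10.16 and 10.13 in wild-type lenses, a log2 fold change of -0.16 (adjusted p = 0.449). The other 9 neighbours, Txndc9 included, had log2 fold changes from -0.41 to 0.16 with limma adjusted p of 0.156 or more. Of these 9, 4 were dim. Over all 10 neighbours, 9 had a log2 fold change below 0, as had 11196 of all 22626 probe sets, and Unc50 lay above 0. Groups of Txndc9 and Lipt1 did not overlap, with Hsf4-null lower, as was so for 11.7% of all probe sets.

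**Figure D5:**
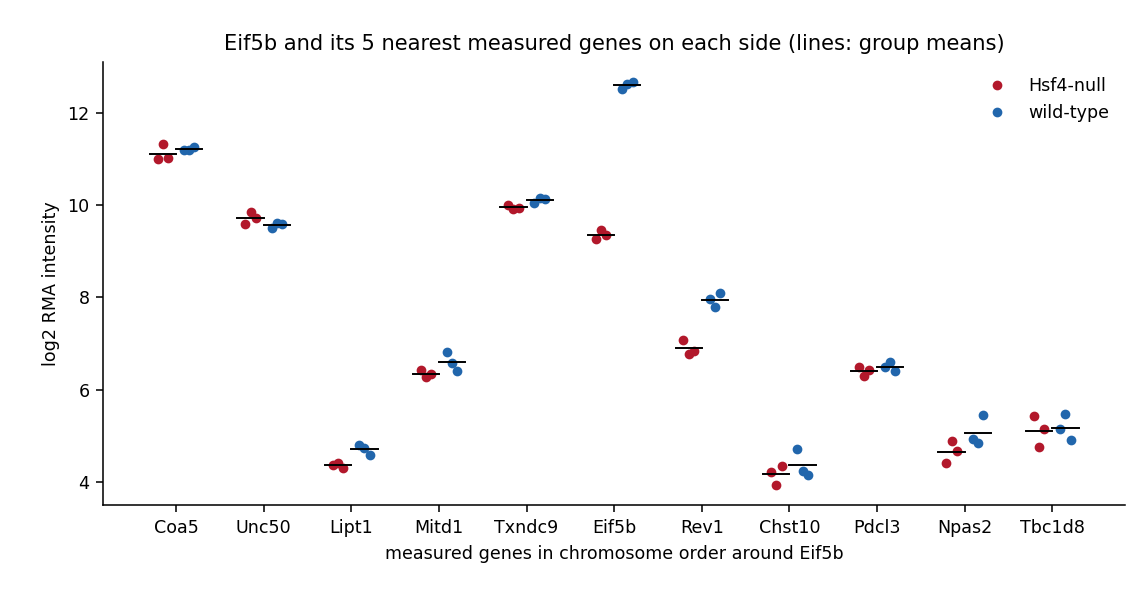
Log2 RMA intensity of Eif5b and of the 5 nearest measured genes on each side, in chromosome order, on each Hsf4-null (red) and wild-type (blue) array, each gene by its brightest probe set, with lines at group means. Eif5b and Rev1 are the genes that limma called, with differences of -3.24 and -1.06 log2 units, and heights cannot be compared between genes.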

How the data were processed

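Newborn lens RNA was measured on 6 arrays, 3 of Hsf4-null and 3 of wild-type samples. The deposited values are linear RMA intensities, 1 for each probe set on each array, as the authors made them. The sources used here do not give the RMA software version or say if further arrays entered the normalization. After log2, and without the 64 control probe sets among 22690, the remaining 22626 entered limma 3.58.1 in R 4.3.3 (2 groups, no block, no filter on dim probe sets), with calls at a Benjamini-Hochberg adjusted p under 0.05. Symbols come from the platform annotation, updated through the gene identifier to RefSeq GRCm38.p6, which changed no member. Where 1 value per gene was needed, its brightest probe set (highest mean) was taken.

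The members and lists were chosen with earlier results of these data known. Named with values were all Eif5b probe sets, every called member, the 8 highest and 8 lowest member genes above the lowest array median, the lowest adjusted p of each role, the 3 genes whose probe sets differed most, called genes of the other lists, neighbours of Eif5b, and Hsf4. Other genes named beside them were chosen after their values were seen. Alternatives were the methods' t-test (alone and after Benjamini-Hochberg adjustment), trended and robust variance, the replicate number as a block, renewed quantile normalization, a filter on dim probe sets, median centring, 1 probe set per gene, and the loss of each array in turn. The procedures were tested on simulated data. SAM, which the methods join to the t-test, was not run. The number of arrays limits the precision. The methods call the samples biological triplicates, and the sample titles number them as replicates.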

Additional observations from a re-analysis of the deposited data

How the results depend on the processing

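The 3 Eif5b probe sets kept their direction and their call under every alternative that held them, with log2 fold changes from -4.10 to -3.20 and adjusted p of 0.031 or less. Leaving out 1 array gave 3 to 4 called Eif probe sets, where the full set gave 4. The count was 14 by the methods' t-test at its own threshold (8 lower, 6 higher) and 1 with 1 probe set per gene, since that setting holds 36 of the 90. Over all probe sets, 602 calls became 2912 by the methods' t-test and 85 after its Benjamini-Hochberg adjustment, 366 with 1 probe set per gene, 382 with the replicate block, and 321 to 562 without single arrays (321 when Hsf4-null replicate 3 was dropped, 335 when wild-type replicate 2 was, and 358 when wild-type replicate 3 was). The median log2 fold change of the 90 members, -0.02, was 0.0099 after renewed quantile normalization and -0.05 to 0.01 without single arrays, so its sign is not settled. The call of Eif5 1454663_at was lost after Benjamini-Hochberg adjustment of the t-test (adjusted p = 0.0936), and so were those of Rev1 (0.0936), Mknk2 (0.116), Pelo (0.153) and Eif2ak3 (0.0763). Alternatives for these 4 genes were added after seeing the data. The replicate block changed the call of no Eif probe set. Same-numbered arrays correlated at 0.25, -0.21 and -0.08 in their deviations from the group means. Differently numbered arrays were not compared, so these values cannot tell whether the numbers pair the samples. The causes of these differences were not tested. Signal over background limits what dim probe sets can show.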
